A study of Mus musculus with 2 samples.

Results

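Among single nuclei of whole fetal mouse brain, a set of 474 nuclei carried RNA for at least 1 of the transcription factors Tfap2d, Lhx9 and Pou4f1. Most of these nuclei also carried RNA for the glutamate transporter Slc17a6. The nuclei were chosen by measured values. A nucleus was a member when it had at least 500 detected genes, at most 5% of its UMIs from mitochondrially encoded genes, at least 3 UMIs of Tfap2d, Lhx9 and Pou4f1 together, no UMI of Dlx6os1, Gata2, Gata3 or Tal1, and at most 2 UMIs of Neurod2 and Neurod6 together. A UMI (unique molecular identifier) tags 1 captured RNA molecule, so that PCR copies are counted once. Of 13366 nuclei that passed the gene and mitochondrial limits, 211 of 6686 in the wildtype-labelled library and 263 of 6680 in the knockout-labelled library met the rule.

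The study holds 1 library from wildtype fetal brain and 1 from fetal brain in which Cav1, the gene of the membrane protein caveolin 1, was knocked out, and its title asks about metabolic programming of the fetal brain. The gestational day, the strain, the sex, the number of pooled animals and the construction of the knockout are not given in the sources used here. With 1 library per genotype there was no replicate and no test. Every interval below is a 95% interval for counting error only, and genotype, animal and library cannot be told apart. Where values come in pairs, the first belongs to the wildtype-labelled and the second to the knockout-labelled library.

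Tfap2d belongs to the AP-2 family of transcription factors, Lhx9 is a LIM homeodomain factor and Pou4f1 (Brn3a) is a POU homeodomain factor. In the fetal brain Lhx9 marks postmitotic neurons of the thalamus, pretectum and midbrain roof, Pou4f1 marks neurons of the habenula, tectum and red nucleus, and Tfap2d is known from the midbrain roof and the retina. Slc17a6 (vesicular glutamate transporter 2) loads glutamate into synaptic vesicles and is the main transporter of excitatory neurons outside the cortex. Dlx6os1 marks forebrain inhibitory neurons, Gata2, Gata3 and Tal1 mark inhibitory neurons of the midbrain and hindbrain, and Neurod2 and Neurod6 mark cortical excitatory neurons. The rule sets limits on the RNA of those classes.

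Members were deeper than the other nuclei of both libraries. The median was 3239 and 3461 UMIs in members against 2106 and 2320 in the other kept nuclei. Member UMIs came to 760068 and 1134352 in all. The rule counts UMIs and so depends on depth, and this gap stands beside each share below. The 2 libraries shared 43 barcodes, of which 1 was a member in either library and 0 were members in both. Xist, the RNA of the inactive X chromosome, stood at 1592 and 1611 CPM (UMIs of the gene per 1000000 UMIs of the set).

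Of the genes of this set, several lie next to each other in the genome, and their start regions are shown for that reason. On the GRCm39 build with the GENCODE M39 annotation, Tfap2d occupies chromosome 1 from 19173246 to 19236570 on the plus strand and is followed 42.6 kb downstream by Tfap2b (19279138 to 19309069, plus strand). Lhx9 lies on chromosome 1 from 138752924 to 138776341 on the minus strand. Pou4f1 lies on chromosome 14 from 104699112 to 104705504 on the minus strand, and the long non-coding RNA gene D130079A08Rik (104525867 to 104696773, minus strand) begins 2.34 kb past its end. Each window below holds 250 bases before and 30 bases from the annotated gene start, is read 5′ to 3′ on the gene's strand from the GRCm39 genome, and shows in capitals the 4-base homeodomain core TAAT on either strand. The windows are chr1:19172996-19173275 for Tfap2d, chr1:19278888-19279167 for Tfap2b, chr1:138776312-138776591 for Lhx9, chr14:104705475-104705754 for Pou4f1 and chr14:104696744-104697023 for D130079A08Rik.
Tfap2d: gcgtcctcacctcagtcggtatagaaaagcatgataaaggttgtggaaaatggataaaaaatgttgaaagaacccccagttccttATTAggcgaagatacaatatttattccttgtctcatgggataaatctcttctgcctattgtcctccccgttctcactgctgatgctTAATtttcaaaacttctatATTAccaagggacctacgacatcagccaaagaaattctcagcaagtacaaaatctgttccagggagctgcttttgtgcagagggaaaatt
Tfap2b: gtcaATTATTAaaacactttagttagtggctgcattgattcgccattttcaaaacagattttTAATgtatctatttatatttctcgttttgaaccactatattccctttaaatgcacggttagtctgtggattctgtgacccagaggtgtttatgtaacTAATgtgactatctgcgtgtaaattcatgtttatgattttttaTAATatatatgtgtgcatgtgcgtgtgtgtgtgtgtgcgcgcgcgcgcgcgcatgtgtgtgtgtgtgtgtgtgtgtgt
Lhx9: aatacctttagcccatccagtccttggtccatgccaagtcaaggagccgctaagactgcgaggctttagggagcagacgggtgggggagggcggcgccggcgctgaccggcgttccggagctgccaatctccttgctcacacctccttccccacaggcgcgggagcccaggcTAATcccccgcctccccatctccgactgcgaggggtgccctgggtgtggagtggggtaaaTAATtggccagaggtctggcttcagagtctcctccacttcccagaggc
Pou4f1: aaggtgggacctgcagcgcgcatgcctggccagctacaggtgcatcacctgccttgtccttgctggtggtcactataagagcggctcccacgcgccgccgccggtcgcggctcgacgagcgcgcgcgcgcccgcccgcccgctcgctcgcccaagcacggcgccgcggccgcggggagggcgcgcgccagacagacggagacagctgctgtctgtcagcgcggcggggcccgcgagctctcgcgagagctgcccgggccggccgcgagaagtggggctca
D130079A08Rik: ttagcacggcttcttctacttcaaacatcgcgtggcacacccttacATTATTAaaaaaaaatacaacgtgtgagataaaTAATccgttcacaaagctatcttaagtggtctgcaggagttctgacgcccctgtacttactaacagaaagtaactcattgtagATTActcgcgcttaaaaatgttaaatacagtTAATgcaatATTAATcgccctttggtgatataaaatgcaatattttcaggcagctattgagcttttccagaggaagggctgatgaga
TAAT occurred 3 times at Tfap2d, 5 times at Tfap2b, 2 times at Lhx9, 0 times at Pou4f1 and 7 times at D130079A08Rik, counting overlapping matches. It is a common string, present in 61.0% of the same windows of 21770 protein-coding genes and in 67.9% of those of 32884 long non-coding RNA genes. The longer homeodomain string TAATTA, which contains TAAT, and the AP-2 palindrome GCCNNNGGC were searched too and occurred in none of the 5 windows, against 5.91% and 13.4% of the windows of protein-coding genes. The 2 palindromic strings read the same on both strands. The windows also differed in base composition, with 37.9% G and C at Tfap2b and D130079A08Rik, 40.4% at Tfap2d, 63.6% at Lhx9 and 75% at Pou4f1.

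The values that chose the members are given as a description. Tfap2d stood at 639 and 666 CPM (486 and 756 UMIs), Lhx9 at 550 and 499 CPM, and Pou4f1 at 84.2 and 54.7 CPM. Levels per length were not computed, so these levels are not compared between genes. Of all Tfap2d UMIs in kept nuclei, 56.4% and 59.2% lay in members, whereas the shares were 34.1% and 41.0% for Lhx9 and 39.5% and 29.7% for Pou4f1. Of the 3, Tfap2d had the largest share of its UMIs inside the set in both libraries.

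Most members stood close to the threshold. Exactly 3 marker UMIs were counted in 90 and 83 members, and 6 or more in 47 and 89. The highest sum was 26 and 15. Just outside the threshold, at a sum of 2, lay 178 and 148 nuclei that met the other limits. A Slc17a6 UMI was seen in 44.9% and 56.1% of those nuclei, in 55.6% and 65.1% of the nuclei at a sum of 3, and in 14.1% and 15.0% of the nuclei at a sum of 0. The limits on the other classes removed 53 of 264 and 86 of 349 nuclei that had 3 or more marker UMIs.

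**Figure D1:**
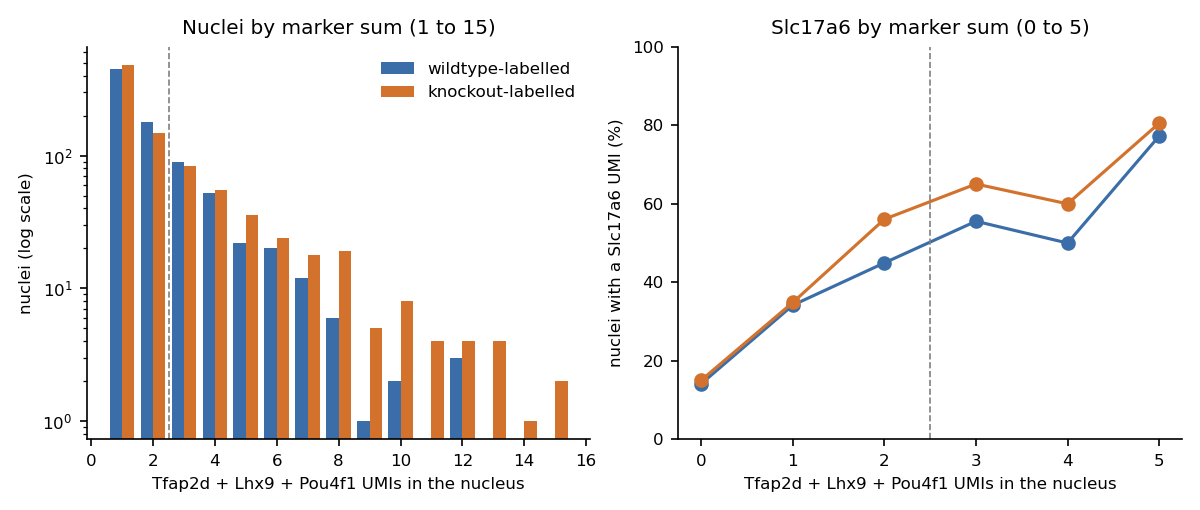
Left, number of nuclei (log scale) at each sum of Tfap2d, Lhx9 and Pou4f1 UMIs from 1 to 15, in nuclei that met the other limits, with bars in blue for the wildtype-labelled and orange for the knockout-labelled library and 3 wildtype-labelled nuclei beyond the axis, at 16, 21 and 26. Right, percentage of nuclei with a Slc17a6 UMI at sums from 0 to 5; the dashed line marks the threshold of 3, and the share goes from 14.1% and 15.0% at a sum of 0 to 55.6% and 65.1% at a sum of 3.

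The 3 marker genes overlapped only in part. Tfap2d alone was seen in 47 and 62 members, Lhx9 alone in 59 and 61, and both without Pou4f1 in 64 and 95. All 3 were seen in 15 and 16. Pou4f1 alone was seen in 2 and 1 members. After each kept nucleus of at least 2000 UMIs was thinned to 2000 UMIs, which evens out depth, a Lhx9 UMI was found in 23.4% (17.6% to 29.9%) of the 197 wildtype-labelled nuclei with Tfap2d and in 10.4% of the 3487 without it. The knockout-labelled shares were 29.6% (24.2% to 35.5%) of 270 nuclei with Tfap2d and in 8.85% of 3741 without. Lhx9 RNA was thus more frequent in nuclei with Tfap2d than in nuclei without it, in both libraries and at equal depth. Thinning left out 3002 and 2669 shallower nuclei.

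Slc17a6, which the rule does not use, was more frequent in members than in the other kept nuclei. Slc17a6 was detected, with at least 1 UMI, in 60.2% (53.2% to 66.8%) and 67.7% (61.7% to 73.3%) of the members, against 16.2% and 18.0% of all other kept nuclei. After thinning to 2000 UMIs the members' shares were 45.9% and 48.1%, and those of the other kept nuclei 15.0% and 15.6%. In nuclei chosen by at least 2 UMIs of Gata2, Gata3 and Tal1 together, inhibitory neurons that should lack the gene, the unthinned shares were 3.80% at a median of 3006 UMIs and 11.3% at a median of 3819 UMIs. The difference between the members of the libraries after thinning was 2.23 percentage points, with an interval from -7.39 to 11.8, so that no difference was detectable at this depth. The level of Slc17a6 was 316 and 334 CPM in members.

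Genes of GABA transmission were seen in few members, which the rule partly set in advance by leaving out nuclei with Dlx6os1, Gata2, Gata3 or Tal1. A UMI of Gad1 or Gad2, the enzymes that make GABA, or of Slc32a1, its vesicular transporter, was found in 9.48% and 14.4% of members (4.42% and 9.36% after thinning), against 11.6% and 14.9% of other nuclei with Slc17a6 and 89.9% and 83.0% of the Gata2, Gata3 or Tal1 nuclei. Gad2 stood at 22.4 and 41.4 CPM in members and at 229 and 206 CPM in the other kept nuclei. The whole list of 15 inhibitory neuron genes, which includes Tfap2b, summed to 376 and 257 CPM in members, 159 and 183 CPM in other nuclei with Slc17a6 and 581 and 563 CPM in all other kept nuclei. Of the members, 74 and 75 had neither a Slc17a6 UMI nor one of the inhibitory genes, and 10 and 28 had both. Slc17a7, the cortical glutamate transporter, gave 4 and 5 UMIs. Genes of dopamine, serotonin and acetylcholine neurons gave 23 and 50 UMIs over a list of 13, with Th at 1 and 0 UMIs. In the oligodendrocyte list of 5 genes 3 and 15 UMIs were counted, and Cldn5, of blood vessels, stood at 13.2 and 18.5 CPM against 28.1 and 48.7 CPM elsewhere.

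The regional genes did not place the set in the midbrain alone. Pax7, a dorsal midbrain factor, had 2 UMIs in the members of each library. En1, a factor of the midbrain and anterior hindbrain, had 3 and 23 UMIs, and Otx2, a factor of the forebrain and midbrain, had 11 and 20, at 14.5 and 17.6 CPM against 42.9 and 40.2 CPM in the other kept nuclei. The 6 Hox genes of the lists, which mark the hindbrain, had at most 1 UMI each in the wildtype-labelled members and at most 3 in the knockout-labelled ones. Tcf7l2, a Wnt pathway factor of thalamic, habenular and midbrain neurons, stood at 1060 and 1106 CPM, against 308 and 260 CPM in the other kept nuclei. A Tcf7l2 UMI was seen in 69.2% and 71.9% of members, and 97 and 143 members had 3 or more. Gbx2, which marks newly formed thalamic neurons, had 2 UMIs in the members of each library. The nuclei are therefore called by their marker genes here, and their regional origin was not tested.

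The members were next compared with the nuclei most like them. These were 786 wildtype-labelled and 837 knockout-labelled nuclei that had a Slc17a6 UMI, met the same limits and had fewer than 3 marker UMIs; since they were chosen by Slc17a6, that gene cannot be compared there. All differences are descriptions, because the rule chose the members from the same counts. Of 6874 genes with at least 20 member UMIs in each library, the 3 marker genes left out, 16 were 2-fold or more higher in members in both libraries (0.233%). A gene could reach this minimum through its higher level in members. Of 6959 genes with at least 20 expected UMIs, 21 were 2-fold or more lower in both (0.302%). Over all genes tested for a higher level the median log2 ratio was -0.01 and -0.02.

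The highest ratio belonged to D130079A08Rik, the non-coding gene beside Pou4f1. In the wildtype-labelled library it stood at 566 CPM in members and 113 CPM in the other Slc17a6 nuclei, with a log2 ratio of 2.33 (2.10 to 2.56). The knockout-labelled levels were 520 and 92.5 CPM, with a ratio of 2.49 (2.28 to 2.70). The 2 libraries thus gave nearly the same ratio. D130009I18Rik, a long non-coding RNA gene 133 kb on the other side of Pou4f1 (chromosome 14, 104838041 to 105204219, plus strand), stood at 153 against 34.6 CPM and at 70.5 against 28.8 CPM. Tfap2b, an AP-2 factor of midbrain and inhibitory neurons and the neighbour of Tfap2d, stood at 314 against 64.8 CPM (log2 ratio 2.28, 1.98 to 2.58) and at 161 against 59.0 CPM (log2 ratio 1.45, 1.14 to 1.76). Gm28501, a long non-coding RNA gene 275 kb from Lhx9 that lies over Nek7 on the other strand, had log2 ratios of 1.53 (0.72 to 2.35) and 1.30 (0.59 to 2.01).

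Neighbours of the 3 marker genes thus made up 4 of the 16 higher genes. Within 500 kb of Tfap2d, Lhx9 or Pou4f1 the annotation lists 66 other genes, of which 42 were measured and 8 had at least 20 UMIs in the members of each library, and 4 of those 8 were 2-fold or more higher in both libraries against 0.233% over all genes. This window was chosen after the values were seen, and a neighbour could reach 20 member UMIs through its higher level in members. Whether the 3′ reads behind the counts belong to these genes or to unannotated ends of the marker genes was not tested. The other 4 tested neighbours were under 2-fold in at least 1 library, among them Nek7, a mitotic kinase gene near Lhx9, at 0.77 (0.15 to 1.38) and 1.58 (1.11 to 2.05). Obi1, next to Pou4f1, had log2 ratios of 1.24 and 0.46.

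Several of the other higher genes code for transcription factors of the diencephalon and midbrain. Shox2, a homeodomain factor of the thalamus, stood at 59.2 against 21.0 CPM and at 68.8 against 28.1 CPM. Irx2, an Iroquois homeodomain factor, stood at 39.5 against 12.7 CPM and at 65.2 against 25.8 CPM. Barhl2, a homeodomain factor of the diencephalon and dorsal midbrain, stood at 39.5 against 17.5 CPM and at 29.1 against 13.6 CPM, on 30 and 33 member UMIs. By summed CPM these 3 factors were thus 2-fold or more higher in the members of both libraries. The log2 intervals of Barhl2 reached down to 0.44 and 0.39. A Shox2 UMI was seen in 16.1% and 21.3% of members, and a Barhl2 UMI in 9.95% and 10.3%. After thinning, Barhl2 was seen in 7.18% and 4.26% of members and 3.35% and 3.14% of other Slc17a6 nuclei, with overlapping intervals. For Shox2 the thinned shares were 9.39% and 11.9% against 2.61% and 5.18%, and the intervals did not overlap within either library.

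Of the other higher genes, Tac1, the precursor of the neuropeptide substance P, stood at 72.4 against 25.4 CPM and at 61.7 against 19.7 CPM. Ndst4, an enzyme that modifies heparan sulfate, had 152 and 489 member UMIs and log2 ratios of 1.55 and 1.78. Galnt14, an enzyme of O-glycosylation, had log2 ratios of 1.36 and 1.45, and Gm49876, at 1.69 and 1.06, and Gm49878, at 1.48 and 0.90, are non-coding genes that overlap it on the other strand, so their reads may not be told apart from those of Galnt14 where strand was not used. Rgs6, a regulator of G protein signalling, had log2 ratios of 1.16 (0.94 to 1.39) and 1.11 (0.92 to 1.31). Tafa2, a secreted protein of neurons, stood at 879 against 430 CPM and 919 against 440 CPM. Osbpl3, a lipid-binding protein, had ratios of 1.59 and 1.27. Cyp4f17, a cytochrome P450, had 20 and 29 member UMIs and ratios of 1.52 and 1.48, and Lncbate1, a non-coding gene that overlaps Zfhx3 on the other strand, had 1.49 and 1.01. Chrm2, a muscarinic acetylcholine receptor, and Rogdi were just under 2-fold in at least 1 library, with ratios between 0.92 and 1.05.

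Of the 8 progenitor and dividing cell genes tested for a lower level, 2 were 2-fold or more lower in both libraries, Eomes and Pax6, against 0.302% over all genes. Eomes, a factor of cortical intermediate progenitors, stood at 23.7 against 79.7 CPM and at 16.7 against 49.2 CPM. 4930545L23Rik, a non-coding gene that overlaps the phospholipase gene Plcb1 on the other strand, had log2 ratios of -2.11 (-2.81 to -1.49) and -1.77 (-2.28 to -1.29), and Plcb1 itself had -1.67 and -1.20. Nfia, a nuclear factor of neural progenitors and maturing neurons, had -1.86 and -1.03, and Nfix, of the same family, -1.33 and -1.22. Celsr1, a cadherin of planar polarity, had -1.80 and -1.50, Adamts6, a secreted protease, -1.78 and -1.33, and Pcdh11x, a protocadherin, -1.29 and -1.28. The non-coding genes Gm44574, A330008L17Rik, Gm26873 and Gm11266 had ratios between -2.05 and -1.26. The limits on Neurod2 and Neurod6 apply alike to both sets of nuclei.

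**Figure D2:**
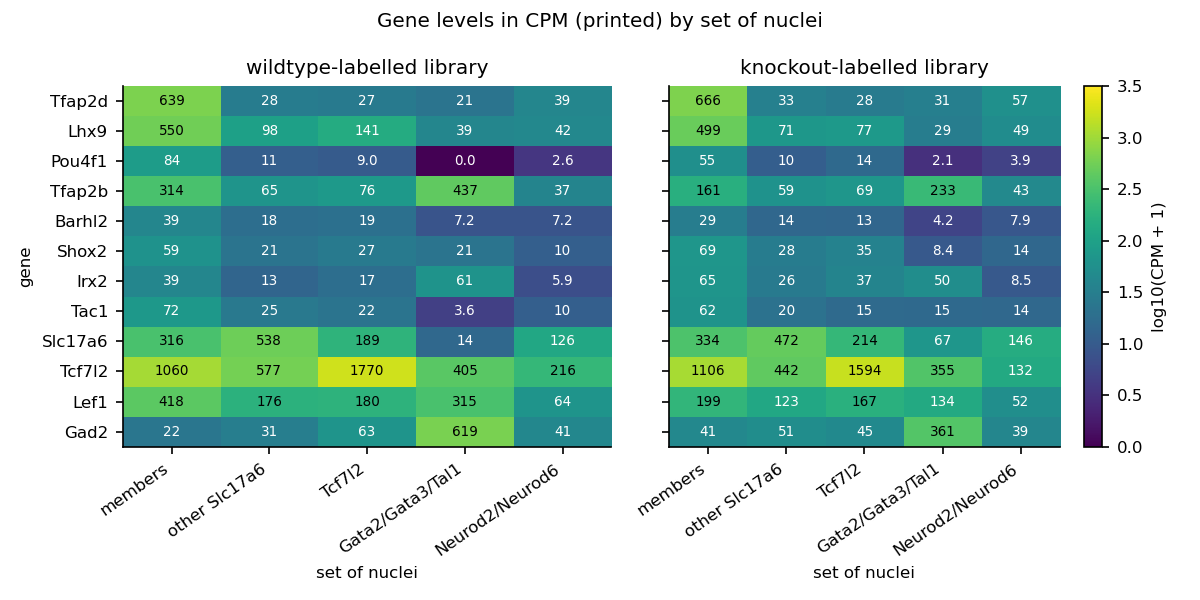
Level of 12 genes (rows) in CPM, printed in each cell and coloured on a log10(CPM + 1) scale, in 5 sets of nuclei (columns) of the wildtype-labelled (left) and knockout-labelled (right) library. The first 3 genes chose the members, and Slc17a6 and Tcf7l2 chose the sets that bear their names. Among these sets Tfap2b is highest in the Gata2, Gata3 or Tal1 nuclei and next highest in members in both panels.

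**Figure D3:**
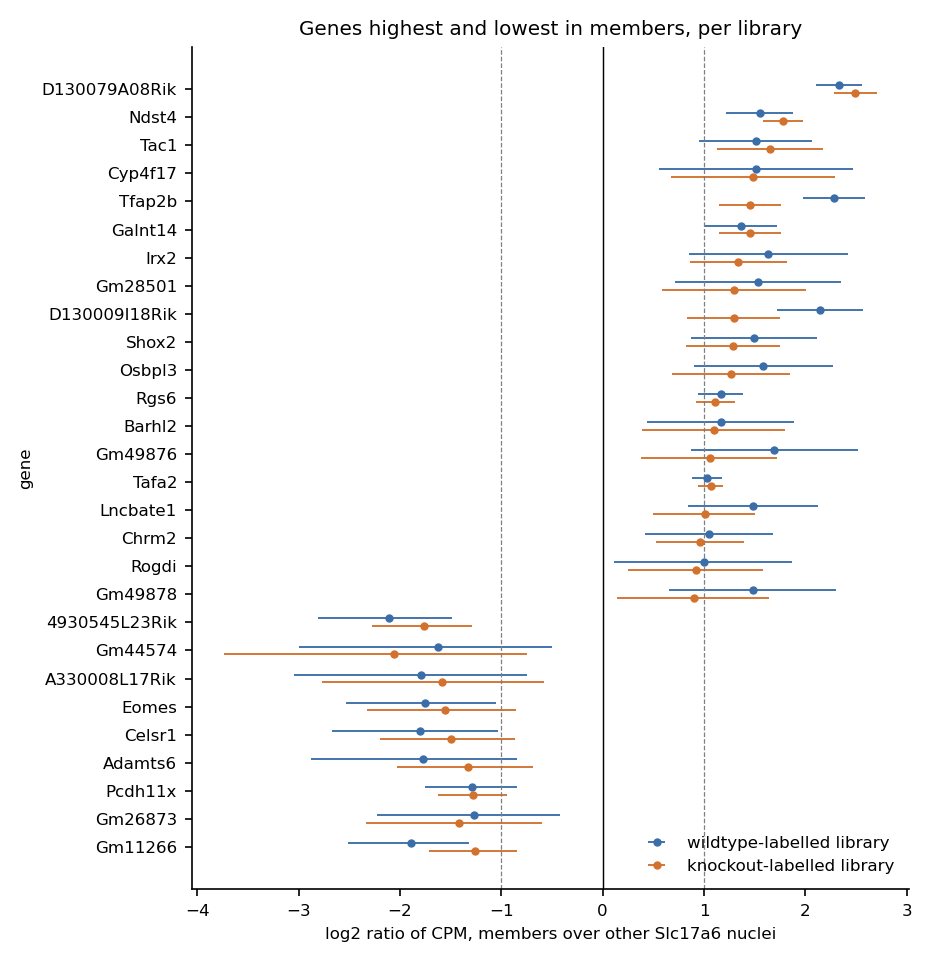
Log2 ratio of CPM in members over other Slc17a6 nuclei for 19 of the 20 genes with the highest and 9 of the 10 with the lowest ratios (rows), in blue for the wildtype-labelled and orange for the knockout-labelled library, with 95% counting intervals as bars and dashed lines at 2-fold. D130079A08Rik lies furthest to the right in both libraries, at 2.33 and 2.49, and the intervals of the 2 libraries overlap for all of the genes drawn but Tfap2b.

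Across the lists of known genes few members of a list stood apart from the other Slc17a6 nuclei. Against the 0.233% of all genes, 3 of 19 tested dorsal midbrain factors were 2-fold or more higher in both libraries, namely Tfap2b, Irx2 and Barhl2, and the list's median log2 ratio was 0.28 and 0.11. In the thalamic and habenular list it was 2 of 12, Shox2 and Tac1, with medians of 0.65 and 0.51. In the hindbrain and cerebellar list 1 of 4 tested genes was higher, Barhl2 again, with medians of 0.56 and 0.29, and in the inhibitory list 1 of 1, Tfap2b. These medians compare with -0.01 and -0.02 over all genes. Of the 19 neuron maturation genes, 21 excitatory transmission genes, 13 ephrins and Eph receptors, 28 other axon guidance genes and 33 ion channel genes tested, 0 were 2-fold or more higher in both libraries. Among the axon guidance receptors Ephb1 stood at 928 against 407 CPM and at 784 against 441 CPM, and Epha3, another Eph receptor, at 421 against 1013 CPM and at 433 against 674 CPM. Ebf1, a helix-loop-helix factor of early neurons, stood at 1226 against 646 CPM in the wildtype-labelled library but at 962 against 932 CPM in the knockout-labelled one. Meg3, a non-coding RNA of neurons, stood at 3940 and 3948 CPM in the members. The hemoglobin gene Hbb-bs, whose RNA comes from red blood cells, stood at 375 and 251 CPM in the members and at 567 and 450 CPM in the other kept nuclei. Over its list of 15 microglia, blood and choroid genes the summed level was 909 and 746 CPM in members and 1464 and 1280 CPM in the other kept nuclei.

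The set was not uniform. When the members were divided by which marker gene had the most UMIs, 90 wildtype-labelled and 128 knockout-labelled members were led by Tfap2d, 101 and 112 by Lhx9, 12 and 6 by Pou4f1, and 8 and 17 were tied. The share led by Tfap2d was 42.7% (35.9% to 49.6%) and 48.7% (42.5% to 54.9%), and these intervals overlap. A Slc17a6 UMI was found in 54.4% and 66.4% of the Tfap2d-led and in 60.4% and 70.5% of the Lhx9-led members, and an inhibitory gene in 8.89% and 14.1% against 10.9% and 15.2%. On both sides Slc17a6 was thus found in more members than an inhibitory gene was. The interval of the Slc17a6 share in the wildtype-labelled Tfap2d-led members was wide, from 43.6% to 65.0%. Median depth was 3031 and 3228 UMIs in the Tfap2d-led and 3333 and 3910 UMIs in the Lhx9-led members.

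Of 4833 genes with at least 30 UMIs over the Tfap2d-led and Lhx9-led members of each library, 8 were 2-fold or more higher in the Tfap2d-led members in both libraries (0.166%) and 26 in the Lhx9-led members (0.538%). This comparison was chosen after values were seen. Ndst4 was the highest on the Tfap2d side, at 434 against 44.7 CPM (log2 ratio 3.28, 2.55 to 4.10) and at 732 against 157 CPM (2.22, 1.87 to 2.57). Its higher level over the whole set thus lay mainly in the Tfap2d-led nuclei. Zbtb7c, a zinc finger factor, stood at 141 against 31.5 CPM and at 134 against 55.5 CPM. Sema3a, a secreted repellent of axons, stood at 77.1 against 28.9 CPM and at 115 against 48.1 CPM. The other 5 were the non-coding genes 2600014E21Rik, Gm2164 and Gm20713, and Mpped1 and Shb, with ratios between 1.01 and 1.77. Gm20713 lies within Gpc5 on the other strand, so their reads may not be told apart where strand was not used.

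More genes were higher on the Lhx9 side. In this paragraph levels are given for the Tfap2d-led before the Lhx9-led members, and each ratio is Tfap2d-led over Lhx9-led. Rnf220, a ubiquitin ligase, stood at 106 CPM in the Tfap2d-led and 1070 CPM in the Lhx9-led wildtype-labelled members (log2 ratio -3.34, -3.89 to -2.82). The knockout-labelled levels were 181 and 915 CPM (-2.34, -2.68 to -2.02). Rspo3, a secreted enhancer of Wnt signalling, stood at 12.8 and 160 CPM and at 15.5 and 85.2 CPM. Zic1 and Zic4, zinc finger factors of the dorsal neural tube whose genes overlap on chromosome 9, had ratios of -1.87 and -1.03 for Zic1 and of -1.76 and -1.22 for Zic4. Nwd2 stood at 12.8 and 405 CPM and at 19.4 and 109 CPM. Gm29478, a non-coding gene of the chromosome 9 interval from 91285522 to 91549762, had 1 and 70 wildtype-labelled UMIs (log2 ratio -5.84, -11.2 to -3.31) and 4 and 51 knockout-labelled ones. Fam189a1, Pde1a (a cyclic nucleotide phosphodiesterase), Mast4 (a kinase), Megf11 (a surface receptor of neuronal mosaics) and Kitl (the ligand of the receptor Kit) were each 2-fold or more higher in the Lhx9-led members as well.

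Robo3, a receptor that lets axons cross the midline, differed between the sets. It had 42 UMIs in the Lhx9-led wildtype-labelled members and 0 in the Tfap2d-led and Pou4f1-led members together. Its level was 12.9-fold that of a floor of 3 UMIs over those other members, and the log2 interval of the ratio starts at 3.33. The knockout-labelled counts were 23 UMIs in the Lhx9-led, 0 in the Tfap2d-led and 3 in the Pou4f1-led members. There the level was 7.63-fold that of the other sets together (log2 interval 1.20 to 5.31), but the 6 Pou4f1-led nuclei alone stood higher, at 135 CPM against 42.6 CPM. The UMIs came from 10 of 101 and 5 of 112 Lhx9-led nuclei, with up to 8 and 14 in a single nucleus. Mab21l2, a factor of the midbrain roof, and Hbb-y, an embryonic globin of red blood cells, had ratios past 3-fold for the Pou4f1-led members of both libraries, on 5 and 1 UMIs for Mab21l2 and 3 and 2 for Hbb-y. The log2 intervals include 0 for Hbb-y in both libraries (-0.71 to 3.52 and -1.02 to 4.14) and for Mab21l2 in the knockout-labelled one (-3.43 to 4.75). Of 272 list genes with 30 or more member UMIs, these 3 had ratios past 3-fold for 1 set in both libraries.

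**Figure D4:**
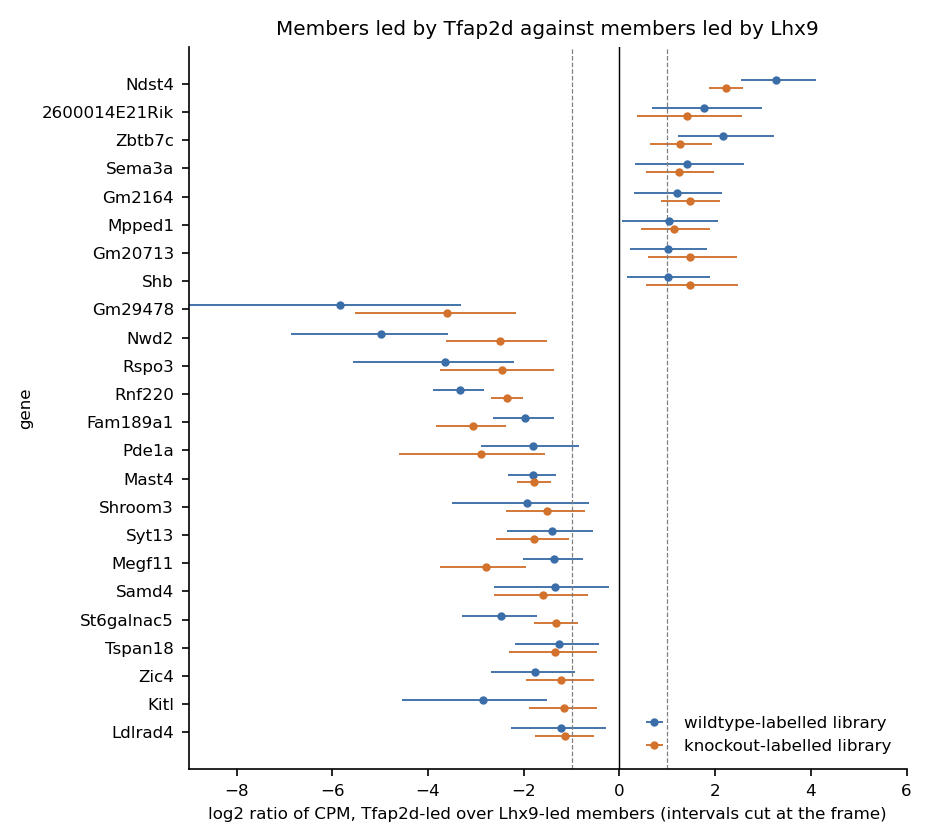
Log2 ratio of CPM in Tfap2d-led over Lhx9-led members for the 8 genes 2-fold or more higher in the first and 16 of the 26 higher in the second (rows), in blue for the wildtype-labelled and orange for the knockout-labelled library, with 95% counting intervals as bars. Ndst4 lies furthest to the right (3.28 and 2.22) and Gm29478 and Nwd2 furthest to the left in the wildtype-labelled library, and no gene changes side between libraries because both libraries were used to choose it.

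The knockout and its target were examined in the members. Cav1 had 0 and 4 UMIs. The count of 4 corresponds to 3.53 CPM (0.96 to 9.03). For the count of 0, a floor of 3 UMIs in the wildtype-labelled members corresponds to 3.95 CPM. Over all kept nuclei Cav1 stood at 4.13 and 4.02 CPM, so that the summed Cav1 count does not follow the labels. The 3′ reads need not fall in the deleted part, whose position is not given in the sources used here, and the check is void in that case. Cav2, the neighbour of Cav1 on chromosome 6 (17281026 to 17289877, plus strand), had 0 and 46 member UMIs, the latter from 36 nuclei. The knockout-labelled level was 10.3-fold that of a floor of 3 UMIs in the wildtype-labelled members, and the log2 interval of the ratio starts at 3.00. Gm15581, a non-coding gene that overlaps Cav1 and Cav2 on the other strand (17206822 to 17385603, minus strand), had 1 and 87 UMIs (log2 ratio 5.87, 3.35 to 11.2). Their levels in all other kept nuclei were 1.16 and 38.3 CPM for Cav2 and 3.71 and 93.2 CPM for Gm15581, so the difference was not restricted to the members. Reads of overlapping genes on opposite strands may not be told apart where strand was not used.

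Members made up 3.16% (2.75% to 3.60%) and 3.94% (3.48% to 4.43%) of the kept nuclei. The difference was 0.78 percentage points with a counting interval from 0.15 to 1.41. When the rule was applied after thinning every nucleus to 2000 UMIs, the shares were 2.66% and 3.19%, and the interval of the difference, from -0.23 to 1.29, included 0. Whether dissection or capture differed between the libraries was not tested.

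Between the members of the 2 libraries most genes differed little. Of 4098 genes with at least 100 member UMIs, 12 were 2-fold or more higher in the knockout-labelled members with an interval that left out 0 (0.293%) and 13 were lower (0.317%). The median log2 ratio was -0.01, and 5% of the genes lay under -0.44 and 5% above 0.47. Of the marker genes, Tfap2d had a log2 ratio of 0.06 (-0.11 to 0.23) and Lhx9 one of -0.14 (-0.33 to 0.05), and both intervals include 0. Pou4f1 was lower in the knockout-labelled members, at -0.62 (-1.15 to -0.10) on 64 and 62 UMIs, but stood at 0.40 (0.02 to 0.78) in the other kept nuclei. These genes chose the members, so their ratios inside the set depend on the rule. Over all kept nuclei the ratios were 0.36 (0.24 to 0.49) for Tfap2d, -0.03 (-0.15 to 0.08) for Lhx9 and 0.16 (-0.14 to 0.46) for Pou4f1. Tfap2b, at 314 and 161 CPM, missed the 2-fold limit with a log2 ratio of -0.96 (-1.25 to -0.68), and its ratio in the other kept nuclei was -0.27.

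Among the genes higher in the knockout-labelled members, Glis3, a zinc finger factor, came first with 24 and 168 UMIs (31.6 and 148 CPM), for which the log2 ratio was 2.23 (1.61 to 2.91). It was found in 13 of 211 and 41 of 263 nuclei, and its ratio in all other kept nuclei was 0.22. Meis1, a homeodomain cofactor, stood at 71.0 and 197 CPM (log2 ratio 1.47, 1.03 to 1.93), with a ratio of 0.77 in the other kept nuclei and of 1.45 in the other Slc17a6 nuclei. Both factors were thus higher outside the members too, though by different amounts.

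Hs3st5 and Ndst3, enzymes that modify heparan sulfate as Ndst4 does, stood at 203 and 530 CPM and at 97.4 and 227 CPM, and Ndst4 itself had 152 and 489 UMIs. Their log2 ratios in members were 1.39, 1.22 and 1.11, and in all other kept nuclei 0.27, 0.11 and 1.05. Kcnip3, which binds calcium and potassium channels, had a ratio of 1.78 (1.02 to 2.62) on 17 and 87 UMIs, against -0.02 in the other kept nuclei. Ide, a protease that degrades insulin, had 1.64 (0.90 to 2.47), and 1.18 in the other kept nuclei. Zfp804b, Otx2os1, Gm42992 and Prr16 completed the 10 highest with ratios between 1.14 and 1.26. When the rule was applied after thinning, the ratios were 0.16 for Prr16, 0.12 for Otx2os1 and -0.32 for Zfp804b, and Otx2os1 was at 0.01 at a marker sum of at least 4. Up to 20.3% of the knockout-labelled UMIs of Zfp804b and 20.0% of those of Otx2os1 came from a single nucleus.

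Among the lower genes, Tenm3, a teneurin that guides synaptic wiring in the visual system, rested on the most UMIs. Tenm3 stood at 2001 and 924 CPM (1521 and 1048 UMIs), for which the log2 ratio was -1.12, against -0.17 in the other kept nuclei and 0.05 in the other Slc17a6 nuclei. It was found in 72.5% and 66.2% of members, so that the level differed more than the share of nuclei. Rnf121, a ubiquitin ligase, had -1.78 (-2.22 to -1.36) and was lower to a like degree in the other kept nuclei, at -1.63. Gpc5, a heparan sulfate proteoglycan of the cell surface, stood at 458 and 153 CPM with a ratio of -1.59 (-1.86 to -1.32). Lef1, the partner factor of Wnt signalling in thalamic neurons, stood at 418 and 199 CPM (-1.07, -1.32 to -0.82), against -0.31 in the other kept nuclei. Ntng2, an axon guidance protein of the netrin G family, had -1.31, and Sema3c, a secreted guidance cue, -1.09. Tmcc3, Nwd2, Vwc2, D130009I18Rik and Gm32647 completed the 10 lowest with ratios between -1.44 and -1.11. Of the Gm32647 UMIs in the wildtype-labelled members, 51.1% came from 1 nucleus, and without the top nucleus of each library its ratio was -0.64 (-1.27 to -0.01).

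These differences were recomputed within the Tfap2d-led and the Lhx9-led members. Of the 25 called genes 23 kept their direction in both, and 10 were 2-fold or more apart in both. The genes were called from these same nuclei, so the agreement in direction was largely set by that choice. Tenm3 had log2 ratios of -1.07 (-1.25 to -0.88) in the Tfap2d-led and -1.04 (-1.19 to -0.88) in the Lhx9-led members, which are nearly equal. Glis3 had 2.54 and 1.79, and Gpc5 -1.20 and -1.47. Nwd2, a gene of the Lhx9-led side, had 0.60 (-1.20 to 2.72) on 4 and 10 UMIs in the Tfap2d-led and -1.89 (-2.35 to -1.45) in the Lhx9-led members. Zfp804b had -0.49 (-1.36 to 0.40) and 1.86 (1.19 to 2.59), and its ratio over all members turned to -0.32 when the rule was applied after thinning. D130009I18Rik, beside Pou4f1, had -0.04 (-0.94 to 0.90) and -1.45 (-2.04 to -0.88).

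**Figure D5:**
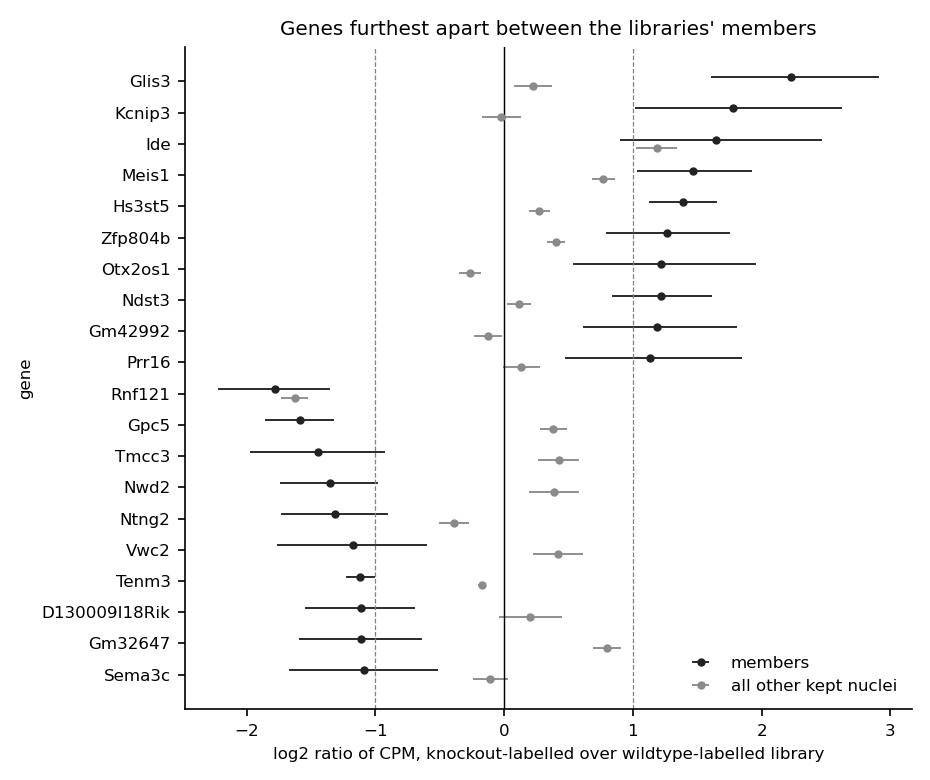
Log2 ratio of CPM in the knockout-labelled over the wildtype-labelled library for the 10 highest and 10 lowest called genes (rows), in black for members and grey for all other kept nuclei, with 95% counting intervals as bars and dashed lines at 2-fold. The grey points of Ide and Rnf121 lie beyond 2-fold on the same side as the black ones, and those of 7 genes, Gpc5 among them, lie on the opposite side of 0 with an interval that leaves out 0.

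By the lists, and against 0.293% of all genes higher and 0.317% lower, 1 of 17 tested dorsal midbrain factors was 2-fold or more higher (Meis1) and 0 were lower, with a median log2 ratio of 0.44 against -0.01 over all genes. Zfhx3 stood at 1016 and 1619 CPM (log2 ratio 0.67, 0.55 to 0.80) and Meis2 at 984 and 1547 CPM (0.65, 0.53 to 0.78), while their ratios in the other kept nuclei were 0.24 and -0.17. In the Tfap2d-led members Meis2 had 0.39 and in the Lhx9-led members 0.65. Of the 10 thalamic and habenular genes tested, 1 was lower (Lef1), and Tcf7l2 had 0.06 (-0.07 to 0.19). Of the 24 other axon guidance genes tested, 1 was lower (Sema3c); Dcc, the netrin receptor, stood at 2643 and 4068 CPM (0.62, 0.55 to 0.70) and Robo1, a Slit receptor, at 2166 and 1747 CPM (-0.31, -0.40 to -0.21). In the lists of 21 excitatory transmission, 31 ion channel, 17 cadherin, 10 ephrin and Eph, 10 GABA and glycine receptor and 19 neuron maturation genes tested, 0 were called in either direction, with medians between -0.19 and -0.02. The channel-binding protein Kcnip4 stood at 1026 and 548 CPM (-0.90, -1.06 to -0.75), against 0.29 in the other kept nuclei. Of the metabolic genes, 10 of glycolysis and the citrate cycle were tested with a median of -0.04 and 0 called, and 6 of cholesterol synthesis with a median of 0.04 and 0 called. Hemoglobin RNA moved between the libraries as well, with Hbb-bs at -0.58 in members and -0.33 in the other kept nuclei, and its part in these differences was not tested.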

How the data were processed

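Nuclei of frozen fetal brain were captured with 10x Genomics 3′ chemistry (version 3.1, per the labels' protocols). The deposited values are unnormalized UMI counts; Cell Ranger 6.1.1 stands in the file headers, and Cell Ranger 3.0.1, STAR and GRCm39 in the submitters' processing notes. Whether introns or strand were counted is not given in the sources used here. The members and lists were chosen with earlier results of these data known. Libraries held 19048835 and 22504908 UMIs in 9763 and 10811 barcodes. UMIs were summed per set and library and scaled to CPM. Shares have Clopper-Pearson, levels exact Poisson and ratios exact conditional binomial intervals (scipy 1.17.1). The ratio calculation was run on simulated Poisson counts, which is what the intervals assume. That run therefore does not cover genes whose UMIs clump in single nuclei. Scrublet (scanpy 1.11.5) marked 0 nuclei, so it did not work here and doublets were kept; leaving out the 8% with the highest scores was an alternative. Genes named by rule were the 20 highest and 10 lowest against other Slc17a6 nuclei (by the library nearer 0), the 10 highest and 10 lowest 2-fold genes between libraries, list genes at 3-fold in 1 led set, and list genes with the most UMIs. Region and transmitter markers, Cav2, Tfap2b between libraries, the Tfap2d-led against Lhx9-led genes, the marker genes' neighbours and other genes were singled out after their values were seen. Of 55416 features 98.8% matched GENCODE M39. Some genes are not reported here.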

Additional observations from a re-analysis of the deposited data

Results flagged for a closer look

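For 7 of the 20 genes named between libraries the ratio of the knockout-labelled to the wildtype-labelled library went one way in the members and the other way in all other kept nuclei, with both counting intervals leaving out 0. With 1 library per genotype this difference was not tested. The 20 genes were chosen for their ratios in members. Of all 25 called genes, 14 had the same direction in the other kept nuclei. The share of opposite directions over all 4098 tested genes was not computed. The log2 ratios in members and elsewhere were 1.22 and -0.27 for Otx2os1, 1.19 and -0.12 for Gm42992, -1.59 and 0.38 for Gpc5, -1.44 and 0.42 for Tmcc3, -1.35 and 0.39 for Nwd2, -1.17 and 0.42 for Vwc2, and -1.11 and 0.80 for Gm32647. Gm20713, called between libraries but not among those 20, had -1.06 and 0.33. It lies within Gpc5 on the other strand, so its reads may not be told apart from those of Gpc5 where strand was not used. The value of Otx2os1 in members was 0.01 at a marker sum of at least 4 and 0.12 with the rule after thinning. Otx2os1 overlaps Otx2 on the other strand, and Gm42992 lies within Auts2 on the same strand, so their reads may not be told apart from those of these genes. Single nuclei held 22.4% of the wildtype-labelled Nwd2 UMIs and 19.3% of those of Gpc5.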

How the results depend on the processing

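With 1 library per genotype no replicate could be left out. No paired analysis was possible because each genotype has 1 library. The count of genes higher in the knockout-labelled members, 12, became 53 at a minimum of 50 UMIs, 6 at 200 UMIs, 23 with the mean of each nucleus's share and 7 at a marker sum of at least 4. The count of lower genes, 13, became 30 at 50 UMIs, 6 at 200 UMIs, 8 at a marker sum of at least 2 and 5 without Lhx9 in the sum. The 16 genes higher in members than in other Slc17a6 nuclei became 32 with the mean of shares, 8 at 50 UMIs per library and 10 when Neurod2 and Neurod6 had to be at 0. The number of genes tested changes with the UMI minimum and with the rule, so these counts cannot be compared as shares. Zfp804b turned from 1.26 to -0.32 when the rule was applied after thinning, and the cause was not tested. For 50 pairs of a named gene and a comparison, 270 values were recomputed, and D130009I18Rik stands in both comparisons. Of these values 240 kept direction and moved by less than their counting interval, 29 moved further and 1 changed sign. Otx2os1, Prr16 and Cyp4f17 were at 0.01, 0.16 and 0.18 under the alternative that put each lowest. Depth limits genes with few UMIs, such as Cav1, and the few Pou4f1-led nuclei.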
